A study of Mus musculus with 12 samples.

Results

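The genes described here are 7 noncoding snoRNA host genes, Gas5, Snhg1, Snhg3, Snhg5, Snhg6, Snhg8 and Snhg12, found by symbol among 23284 gene symbols. They are RNA genes without a known protein product whose introns carry small nucleolar RNAs (snoRNAs), and the symbols Snhg stand for snoRNA host gene. All 7 passed the filter on low values, which asked for 2 of the 12 libraries to reach an RPKM of 1. RPKM, the unit the authors deposited, stands for reads divided by gene length in kilobases and by the depth of the library.

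Total RNA of secondary 1B mouse embryonic fibroblasts (2o 1B MEFs, passage p5) was sequenced. Such cells carry introduced reprogramming factors under doxycycline (dox) control, and RPKM does not separate introduced copies from the cells' own genes. The 6 groups of 2 libraries were siMyc with dox, siGcn5 with dox, siControl with dox, siMyc without dox, siGcn5 without dox and siControl without dox. siMyc is an siRNA against c-Myc, a transcription factor and itself a reprogramming factor. siGcn5 is an siRNA against Gcn5 (gene Kat2a), which acetylates histones within the SAGA complex, and siControl is the control siRNA. Dox was given for 2 days in embryonic stem cell medium, and the labels give 1.5 µg/mL and keep the cells without dox in that medium too. The labels mention siRNA pools and single siRNAs and tie neither to a library. No label ties the replicates to separate cultures; all p-values rest on differences between these libraries alone, possibly technical ones. The study asked how Myc and Gcn5 act early in reprogramming.

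The libraries held 65.5 M to 188 M reads in genes. Each member's RPKM rested on 403 to 16705 reads per library. Myc stood at 16.9 and 26.2 RPKM in siMyc, 103 and 129 in siGcn5 and 174 and 155 in siControl libraries with dox. Without dox it stood at 4.57 and 4.80 RPKM in siMyc, 9.31 and 7.10 in siGcn5 and 21.7 and 17.6 in siControl. Myc was therefore lower in siMyc and, less so, in siGcn5 than in siControl, with and without dox (siGcn5 with dox: log2 change −0.51, adjusted p = 0.046). Kat2a stood at 18.1 and 19.4 RPKM in siMyc, 6.27 and 9.11 in siGcn5 and 55.7 and 53.1 in siControl libraries with dox. Without dox it stood at 17.6 and 16.5 RPKM in siMyc, 1.33 and 1.97 in siGcn5 and 23.0 and 20.7 in siControl. Kat2a was thus lower in siMyc with dox too, at log2 −1.49, and its part in the siMyc results was not tested. The reprogramming factors Pou5f1, Sox2 and Klf4 rose with dox in each arm. In siMyc with dox their log2 changes against siControl were −1.28, −0.89 and 0.46 (adjusted p from limma = 5.0e-05, 0.0042 and 0.018). In siGcn5 with dox they were −0.69, −0.75 and −0.48 (adjusted p = 0.0059, 0.016 and 0.021). The arms thus differed in these factors with dox, and the part of this in the results was not tested. All 9 fibroblast markers had a mean of at least 1 RPKM in every group. Their summed RPKM was 4924 to 4972 in siMyc, 3566 to 4142 in siGcn5 and 2577 to 2960 in siControl with dox, against 8793 to 8847, 7584 to 7858 and 9773 to 9808 in the same arms without dox. Of 6 epithelial markers, 4 in siMyc and 5 in siGcn5 and siControl reached that mean with dox, and their summed RPKM was 1125 to 1241, 460 to 535 and 451 to 514. Without dox the sums were 6.98 to 7.33 in siMyc, 36.5 to 41.9 in siGcn5 and 6.54 to 7.53 in siControl, and no epithelial marker was listed at 0 in a whole group. No pluripotent cell marker reached a mean of 1 RPKM in any group. Of 5 skeletal muscle markers 1 reached that mean in each group, and Myf5 was listed at 0 in both siControl groups. Their summed RPKM was 249 to 256 in siMyc, 77.2 to 98.1 in siGcn5 and 37.9 to 57.8 in siControl with dox. Without dox it was 142 to 163, 104 to 118 and 89.4 to 116 in the same arms. Of 5 neural markers 4 were found and 1 reached that mean in each group. Their summed RPKM was 128 to 157 in siMyc, 107 to 120 in siGcn5 and 146 to 152 in siControl with dox, against 21.7 to 24.7, 14.0 to 15.1 and 21.8 to 22.8 in the same arms without dox. The fibroblast, epithelial and neural sums thus moved with dox in every arm. The muscle sum rose with dox in siMyc, fell in siGcn5 and siControl, and was highest in siMyc with and without dox. Without dox the epithelial sum was highest in siGcn5. Their part in the results was not tested. In bulk RNA, fewer cells of a type and less RNA per cell cannot be told apart.

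A snoRNA host gene is transcribed by RNA polymerase II, and its snoRNAs are released from introns after splicing. Box C/D snoRNAs guide ribose methylation and box H/ACA snoRNAs guide pseudouridylation, mostly of ribosomal RNA. The spliced exons of several noncoding hosts, Gas5 among them, begin with a 5′ terminal oligopyrimidine (TOP) stretch, as ribosomal protein mRNAs do, and are degraded by nonsense-mediated decay when ribosomes read their short open frames, so the exon RNA can rise when translation or growth is held back. Gas5 was named for its rise in growth-arrested fibroblasts, and Myc is known for driving genes of ribosome production.

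The start regions are shown because the TOP stretch lies at the first bases of such transcripts. Each window holds 50 bases before and 30 bases from the annotated start, from RefSeq on build GRCm38.p6, 5′ to 3′ on the gene's strand, and covers promoter and first exon. Capitals mark a TOP-like run, a C followed by at least 4 of C or T, beginning from 10 bases before to 15 bases after the start, a rule set after the sequences were seen. The windows lie at chr1:161035116-161035195 (Gas5, plus strand, the second of its 2 entries), chr4:132308628-132308707 (Snhg12, plus), chr3:123508307-123508386 (Snhg8, minus), chr9:88522868-88522947 (Snhg5, minus), chr4:132353657-132353736 (Snhg3, minus) and chr19:8723437-8723516 (Snhg1, plus).
Gas5: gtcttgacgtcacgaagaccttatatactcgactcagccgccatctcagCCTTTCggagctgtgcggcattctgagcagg
Snhg12: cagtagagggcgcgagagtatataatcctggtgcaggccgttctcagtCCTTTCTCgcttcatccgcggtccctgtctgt
Snhg8: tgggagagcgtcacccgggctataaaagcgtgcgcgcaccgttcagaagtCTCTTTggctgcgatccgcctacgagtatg
Snhg5: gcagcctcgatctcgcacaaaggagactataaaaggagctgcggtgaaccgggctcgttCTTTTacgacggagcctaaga
Snhg3: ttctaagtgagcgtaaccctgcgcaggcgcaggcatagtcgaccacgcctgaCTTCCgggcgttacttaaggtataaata
Snhg1: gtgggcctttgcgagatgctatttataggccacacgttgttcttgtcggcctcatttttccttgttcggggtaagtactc

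The run of Gas5 began 1 base and that of Snhg12 2 bases before the annotated start, and that of Snhg8 began at base 1 of the transcript. The runs of Snhg3 and Snhg5 began at bases 3 and 10. The table held 7 promoters for 6 of the host genes, and Snhg6 was not among them. Of these 7 promoters, 5 held a TOP-like run, against 35.8% of 32851 promoters of the same length. The E-box CACGTG, the best known Myc motif, was searched on both strands from 250 bases before to 50 bases after the start. It was in 0 of the 7 promoters, against 7.15% of all promoters. When the variants of this motif spelled CATGTG, those spelled CACGCG, and lastly those that read CATGCG were also counted, 1 of the 7, that of Snhg5, held an E-box, against 31.8% of all promoters. A match is a description of the letters only.

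Across the 6 groups, RPKM of the host genes spanned 2.43-fold for Snhg6 to 4.31-fold for Snhg5 between the lowest and the highest library. Snhg1 was the most abundant per length, with a mean of 252 ± 16 RPKM in siControl with dox (SD, n = 2). Snhg8 was the least abundant in that group, at 22.01 ± 1.2 RPKM. For Gas5, Snhg1, Snhg3, Snhg5, Snhg6 and Snhg8 the highest mean was in siControl with dox, and for Snhg12 it was in siGcn5 without dox, at 60.1 ± 4.0 RPKM. The lowest mean of each was in a siMyc group, with dox for all but Snhg3. In Gas5 the ranges of siControl with dox, siGcn5 with dox and siGcn5 without dox overlapped along the order, at means of 47.1, 45.1 and 43.1 RPKM. In Snhg1 the ranges of siControl with dox (252) and siGcn5 with dox (251) overlapped. In Snhg3 the 3 lowest groups overlapped, at 14.2 RPKM in siGcn5 without dox, 14.1 in siMyc with dox and 13.1 in siMyc without dox.

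**Figure D1:**
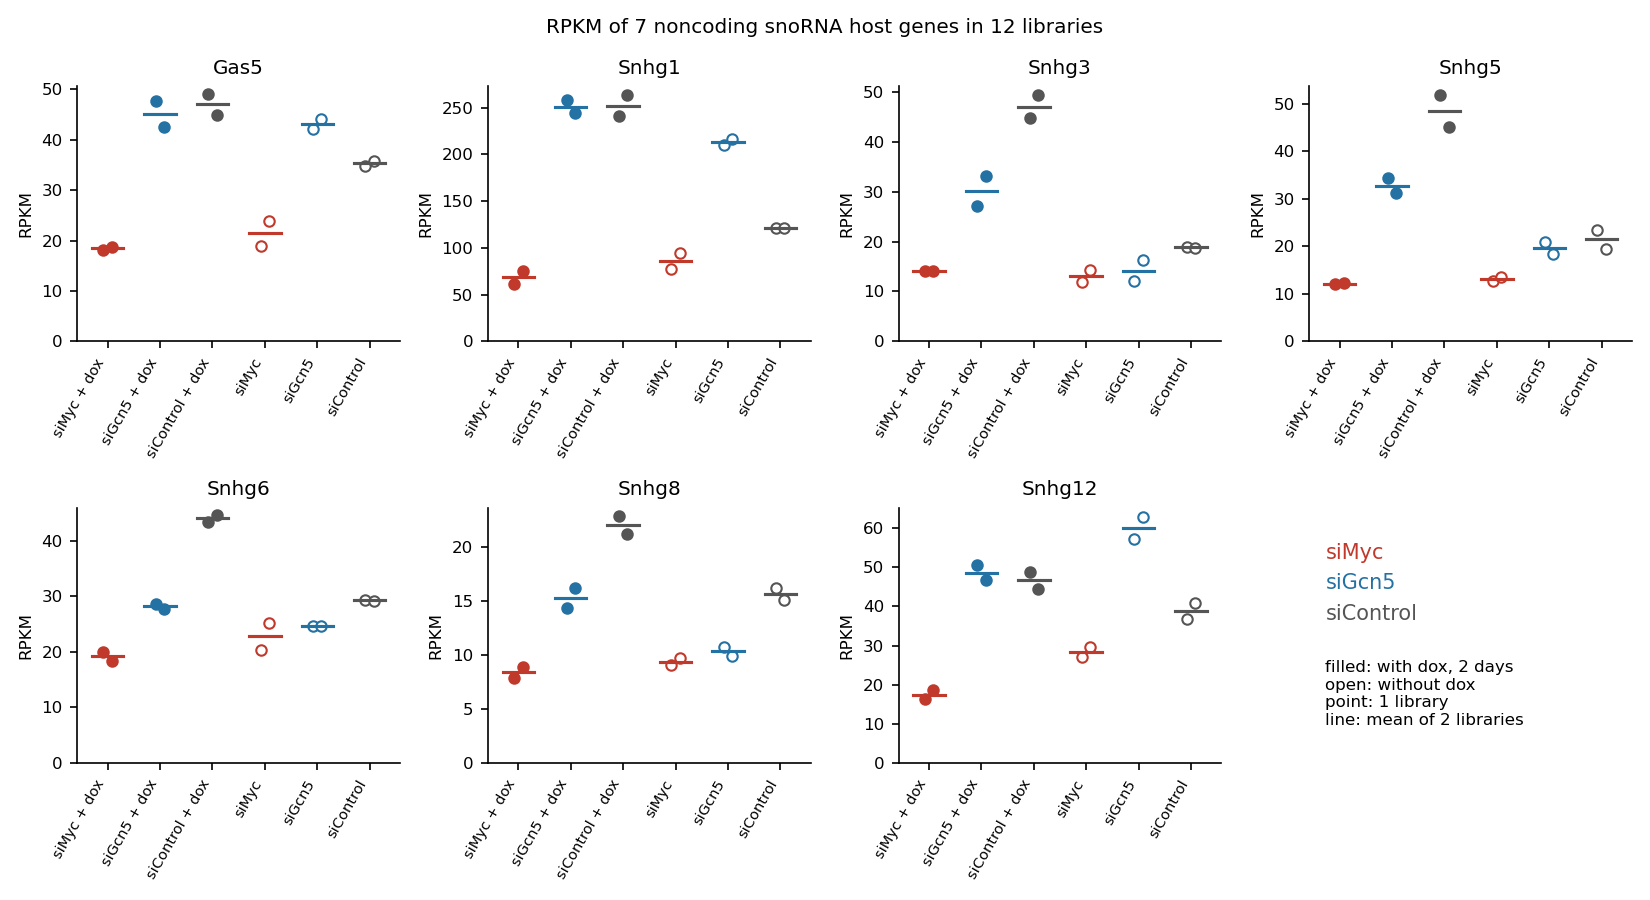
RPKM (y axes, from 0) of the 7 noncoding snoRNA host genes in each library (points) of the 6 groups (x axes), with lines at group means of 2 libraries; filled points are with dox and open points without. In every panel the siMyc libraries with dox lie below both other groups with dox, and siGcn5 without dox is the highest group in the Snhg12 panel.

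The first comparison asked what 2 days of dox did in cells with the control siRNA. All 7 host genes rose with dox, where 46.1% of 13175 tested genes rose, 27.9% fell and 74.0% were called in either direction, a gene being called at a Benjamini-Hochberg adjusted p under 0.05 from limma. Their median log2 change was 0.57, against 0.17 for all tested genes. All log2 changes are of RPKM + 1, which understates the change of low genes. A scaling of the libraries to equal median ratios or to equal quantiles moved that median of all genes to 0.03 or 0.00, and the share of calls that were higher, 62.3%, to 52.2% or 49.9%. The rises stand beside that shift of the whole table.

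Snhg3, host of a pair of H/ACA snoRNAs, stood at 44.8 and 49.3 RPKM with dox, against 18.9 and 18.8 RPKM without dox. Snhg5, known in humans for a chromosome breakpoint in lymphoma, stood at 51.8 and 45.1 RPKM with dox, against 23.4 and 19.5 RPKM without dox. Snhg1, whose introns hold many box C/D snoRNAs, stood at 241 and 263 RPKM with dox, against 121 and 121 RPKM without dox. These 3 genes about doubled or more, and the groups did not overlap. Their log2 changes were 1.28 for Snhg3 (SE 0.14, adjusted p = 1.5e-05), 1.14 for Snhg5 (SE 0.11, adjusted p = 4.9e-06) and 1.05 for Snhg1 (SE 0.11, adjusted p = 1.2e-05).

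The other 4 genes rose less. Snhg6 stood at 43.4 and 44.7 RPKM with dox, against 29.4 and 29.2 RPKM without dox (log2 change 0.57, SE 0.09, adjusted p = 0.00024). Snhg8 stood at 22.9 and 21.2 RPKM with dox, against 16.1 and 15.1 RPKM without dox (log2 change 0.47, SE 0.09, adjusted p = 0.00087). Neither pair of groups overlapped. With equal quantiles these changes were 0.36 and 0.27 and both calls remained.

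Gas5 stood at 49.1 and 45.0 RPKM with dox, against 34.8 and 35.9 RPKM without dox (log2 change 0.40, SE 0.10, adjusted p = 0.0051). Snhg12 stood at 48.9 and 44.5 RPKM with dox, against 36.8 and 40.8 RPKM without dox (log2 change 0.26, SE 0.09, adjusted p = 0.024). The groups did not overlap, but both calls ended under either scaling, with log2 changes of 0.23 and 0.19 for Gas5 (adjusted p = 0.065 and 0.12) and 0.09 and 0.05 for Snhg12 (adjusted p = 0.40 and 0.62). The call of Snhg12 also ended without siControl replicate 1 without dox (log2 change 0.19, adjusted p = 0.17) or siControl replicate 1 with dox (0.20, adjusted p = 0.15).

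siMyc against siControl asked how the host genes depended on Myc. With dox all 7 fell, where 37.7% of tested genes rose, 37.1% fell and 74.9% were called. Their median log2 change was −1.37, against 0.02 for all tested genes, and in each of the 7 the siMyc libraries lay below the siControl libraries. All 7 calls held in each of 22 other settings.

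Snhg5 stood at 12.0 and 12.2 RPKM in siMyc, against 51.8 and 45.1 RPKM in siControl (log2 change −1.91, SE 0.11, adjusted p = 2.5e-07). Its mean in siMyc was 0.25 times that in siControl. Snhg1 stood at 61.4 and 75.6 RPKM in siMyc, against 241 and 263 RPKM in siControl (log2 change −1.87, SE 0.11, adjusted p = 3.4e-07). Snhg3 stood at 14.1 and 14.0 RPKM in siMyc, against 44.8 and 49.3 RPKM in siControl (log2 change −1.67, SE 0.14, adjusted p = 2.1e-06). The mean ratios of Snhg1 and Snhg3 were 0.27 and 0.30.

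Snhg12 stood at 16.4 and 18.5 RPKM in siMyc, against 48.9 and 44.5 RPKM in siControl (log2 change −1.37, SE 0.09, adjusted p = 6.2e-07). Gas5 stood at 18.2 and 18.7 RPKM in siMyc, against 49.1 and 45.0 RPKM in siControl (log2 change −1.30, SE 0.10, adjusted p = 1.7e-06). In neither gene did the groups overlap. Snhg8 stood at 7.87 and 8.87 RPKM in siMyc, against 22.9 and 21.2 RPKM in siControl (log2 change −1.30, SE 0.09, adjusted p = 8.2e-07). Snhg6 stood at 20.1 and 18.4 RPKM in siMyc, against 43.4 and 44.7 RPKM in siControl (log2 change −1.16, SE 0.09, adjusted p = 1.7e-06). Snhg6 had the smallest of the 7 falls, to 0.44 times the siControl mean. For all 7, both siMyc libraries with dox also lay below both siControl libraries without dox.

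Without dox all 7 also fell, where 12.8% of tested genes rose, 10.7% fell and 23.5% were called. The median log2 change was −0.50, against 0.02 for all tested genes. Gas5 stood at 18.8 and 24.0 RPKM in siMyc, against 34.8 and 35.9 RPKM in siControl (log2 change −0.71, SE 0.10, adjusted p = 0.0018). Snhg8 stood at 9.01 and 9.68 RPKM in siMyc, against 16.1 and 15.1 RPKM in siControl (log2 change −0.68, SE 0.09, adjusted p = 0.0012). Snhg5 stood at 12.8 and 13.5 RPKM in siMyc, against 23.4 and 19.5 RPKM in siControl (log2 change −0.66, SE 0.11, adjusted p = 0.0024). Calls of these 3 genes held in each of the 22 other settings.

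For Snhg1, Snhg3, Snhg12 and Snhg6 the siMyc libraries without dox also lay below both siControl libraries. Snhg1 stood at 77.4 and 94.1 RPKM in siMyc, against 121 and 121 RPKM in siControl (log2 change −0.50, SE 0.11, adjusted p = 0.0098). Snhg3 stood at 11.9 and 14.3 RPKM in siMyc, against 18.9 and 18.8 RPKM in siControl (log2 change −0.50, SE 0.14, adjusted p = 0.026). In both genes siMyc replicate 1 was the lower library. Snhg12 stood at 26.9 and 29.6 RPKM in siMyc, against 36.8 and 40.8 RPKM in siControl (log2 change −0.44, SE 0.09, adjusted p = 0.0078). Snhg6 stood at 20.3 and 25.3 RPKM in siMyc, against 29.4 and 29.2 RPKM in siControl (log2 change −0.36, SE 0.09, adjusted p = 0.019). The 4 calls ended without siMyc replicate 1 (adjusted p = 0.093 for Snhg1, 0.19 for Snhg3, 0.073 for Snhg12 and 0.16 for Snhg6, whose log2 change was then −0.21). They also ended without siControl replicate 2 (adjusted p = 0.058 for Snhg1, 0.11 for Snhg3, 0.068 for Snhg12 and 0.087 for Snhg6) and, Snhg12 excepted, without siControl replicate 1 (0.059 for Snhg1, 0.12 for Snhg3 and 0.099 for Snhg6). The call of Snhg3 ended with no filter (0.062) and that of Snhg6 in a fit of the compared groups alone (0.064).

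Whether dox changed the siMyc effect was tested as an interaction, the log2 change with dox in siMyc minus that in siControl. It was negative and called for all 7 genes, where 24.8% of tested genes had a positive call, 29.3% a negative one and 54.1% either. The median was −0.93, against −0.03 for all tested genes. The interaction was −1.37 for Snhg1 (SE 0.16, adjusted p = 0.00010), −1.24 for Snhg5 (SE 0.15, adjusted p = 0.00014) and −1.17 for Snhg3 (SE 0.20, adjusted p = 0.00077). These are the 3 genes with the largest dox response in siControl, a value that the interaction subtracts by definition. It was −0.93 for Snhg12, −0.80 for Snhg6, −0.61 for Snhg8 and −0.60 for Gas5, each with an adjusted p from limma between 0.00029 and 0.0066. All 7 calls held in each of the 22 other settings.

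In siMyc cells none of the 7 host genes rose with dox, where 28.9% of tested genes rose, 15.9% fell and 44.8% were called. The count of 2 genes that fell was Snhg12 and Snhg1. Snhg12 stood at 16.4 and 18.5 RPKM with dox, against 26.9 and 29.6 RPKM without dox (log2 change −0.67, SE 0.09, adjusted p = 0.00019). Snhg1 stood at 61.4 and 75.6 RPKM with dox, against 77.4 and 94.1 RPKM without dox (log2 change −0.32, SE 0.11, adjusted p = 0.037). The groups did not overlap in either gene. The call of Snhg1 ended without either siControl library without dox (adjusted p = 0.054 each), siMyc replicate 2 without dox (log2 change −0.18, adjusted p = 0.28) or siMyc replicate 1 with dox (−0.17, adjusted p = 0.27). It also ended with no filter (0.063), on recovered reads (0.068) and with the compared groups alone (0.097). The other 5 genes had log2 changes of −0.23 (Snhg6) to 0.10 (Snhg3). Without siMyc replicate 1 without dox, Gas5 and Snhg6 were called at −0.36 and −0.38 (adjusted p = 0.016 and 0.0063). With equal quantiles Gas5, Snhg6 and Snhg8 were called, at −0.31, −0.33 and −0.30, and with equal median ratios Snhg6 alone was added, at −0.30 (adjusted p = 0.025). With equal quantiles the share of all calls that were higher was 40.2%, against 64.5% without further scaling; with equal median ratios it was 54.7%.

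**Figure D2:**
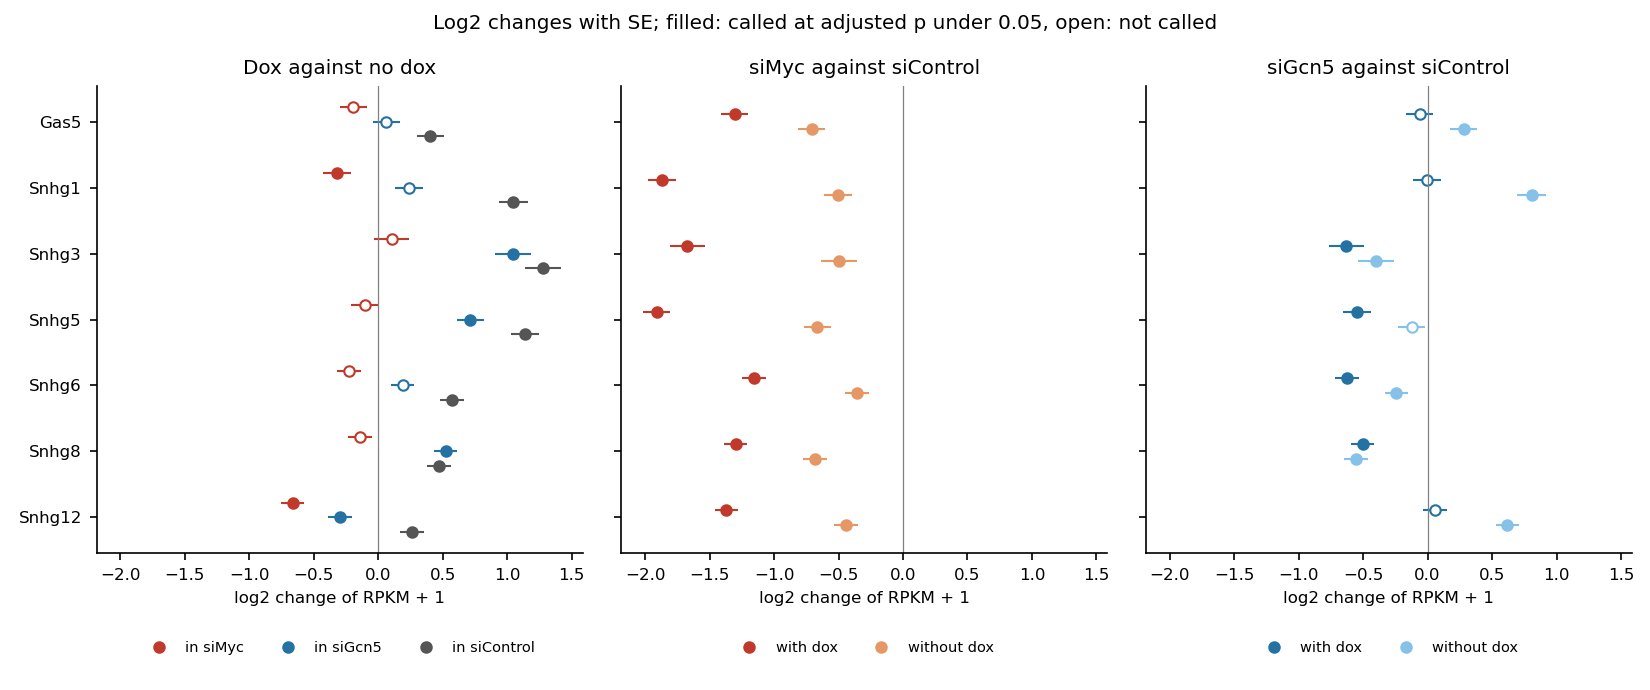
Log2 change of RPKM + 1 (x axis) with its SE (bars) for each host gene (y axis), for dox in each siRNA arm (left), siMyc against siControl (middle) and siGcn5 against siControl (right). Filled points passed an adjusted p of 0.05 and open points did not; all siMyc points lie left of 0, and without dox siGcn5 gave 3 rises and 3 falls.

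siGcn5 against siControl asked the same of Gcn5. Without dox the host genes parted: Snhg1, Snhg12 and Gas5 rose, Snhg8, Snhg3 and Snhg6 fell, and Snhg5 did not pass the test. Of all tested genes, 36.9% rose, 20.4% fell and 57.3% were called. The median over the 7 was −0.12, against 0.11 for all tested genes, and with equal median ratios that of all genes was 0.01. The share of calls that were higher was 64.4%, and 49.5% with equal median ratios or 54.0% with equal quantiles. Myc itself was lower in these libraries, at log2 −1.17 (SE 0.20, adjusted p = 0.00061), and its part in the result was not tested.

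Snhg1 stood at 210 and 216 RPKM in siGcn5, against 121 and 121 RPKM in siControl (log2 change 0.81, SE 0.11, adjusted p = 0.00019). Snhg12 stood at 57.3 and 63.0 RPKM in siGcn5, against 36.8 and 40.8 RPKM in siControl (log2 change 0.62, SE 0.09, adjusted p = 0.00030). Gas5 stood at 42.1 and 44.2 RPKM in siGcn5, against 34.8 and 35.9 RPKM in siControl (log2 change 0.28, SE 0.10, adjusted p = 0.040). In all 3 genes both siGcn5 libraries lay above both siControl libraries. The calls of Snhg1 and Snhg12 held in each of the 22 other settings. That of Gas5 ended in 9 of them: with no filter, with equal median ratios (log2 change 0.14), with equal quantiles (0.18), without any 1 library of either group, and without either siMyc library with dox, at adjusted p of 0.052 to 0.29.

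Snhg8 stood at 10.8 and 9.87 RPKM in siGcn5, against 16.1 and 15.1 RPKM in siControl (log2 change −0.55, SE 0.09, adjusted p = 0.00057), a call that held in each of the 22 other settings. Snhg3 stood at 12.0 and 16.3 RPKM in siGcn5, against 18.9 and 18.8 RPKM in siControl (log2 change −0.40, SE 0.14, adjusted p = 0.030). Snhg6 stood at 24.6 and 24.7 RPKM in siGcn5, against 29.4 and 29.2 RPKM in siControl (log2 change −0.24, SE 0.09, adjusted p = 0.045). No siGcn5 library of these 3 genes reached the siControl range. The call of Snhg3 ended without siGcn5 replicate 1 (log2 change −0.19, adjusted p = 0.27), without siControl replicate 1 (0.10) or 2 (0.096), with no filter (0.062) and with the compared groups alone (0.069), and without siGcn5 replicate 2 its log2 change was −0.60. The call of Snhg6 ended in 11 settings, at adjusted p of 0.051 to 0.14: with no filter, with no intensity trend, on recovered reads, and without any 1 library of these groups, of siControl with dox or of siMyc with dox. With equal median ratios or quantiles the change of Snhg6 was −0.38 in each and its call remained. Snhg5 stood at 20.96 and 18.3 RPKM in siGcn5, against 23.4 and 19.5 RPKM in siControl, and the groups overlapped (log2 change −0.12, adjusted p = 0.35). With equal median ratios it was called, at −0.26 (adjusted p = 0.045). Snhg12 and Snhg3 both lie on chromosome 4, on opposite strands, and moved in opposite directions.

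With dox the 4 host genes Snhg3, Snhg6, Snhg5 and Snhg8 fell in siGcn5, where 31.4% of tested genes rose, 24.9% fell and 56.3% were called. Their calls held in each of the 22 other settings. Snhg3 stood at 27.2 and 33.1 RPKM in siGcn5, against 44.8 and 49.3 RPKM in siControl (log2 change −0.63, SE 0.14, adjusted p = 0.0033). Snhg6 stood at 28.7 and 27.7 RPKM in siGcn5, against 43.4 and 44.7 RPKM in siControl (log2 change −0.63, SE 0.09, adjusted p = 0.00035). Each group pair stood apart. Snhg5 stood at 34.4 and 31.1 RPKM in siGcn5, against 51.8 and 45.1 RPKM in siControl (log2 change −0.55, SE 0.11, adjusted p = 0.0016). Snhg8 stood at 14.3 and 16.2 RPKM in siGcn5, against 22.9 and 21.2 RPKM in siControl (log2 change −0.50, SE 0.09, adjusted p = 0.0011). These groups did not overlap either.

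Gas5, Snhg1 and Snhg12 overlapped with siControl in the presence of dox. Gas5 stood at 47.6 and 42.5 RPKM in siGcn5, against 49.1 and 45.0 RPKM in siControl (log2 change −0.06, SE 0.10, adjusted p = 0.63). Snhg1 stood at 258 and 244 RPKM in siGcn5, against 241 and 263 RPKM in siControl (log2 change 0.00, SE 0.11, adjusted p = 0.97). Snhg12 stood at 50.5 and 46.9 RPKM in siGcn5, against 48.9 and 44.5 RPKM in siControl (log2 change 0.06, SE 0.09, adjusted p = 0.61). They are the 3 genes that rose in siGcn5 without dox.

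In siGcn5 cells dox raised Snhg3, Snhg5 and Snhg8 and lowered Snhg12, where 36.0% of tested genes rose, 22.4% fell and 58.4% were called. The log2 change was 1.05 for Snhg3 (SE 0.14, adjusted p = 0.00014), 0.71 for Snhg5 (SE 0.11, adjusted p = 0.00030) and 0.52 for Snhg8 (SE 0.09, adjusted p = 0.00084). Snhg12 stood at 50.5 and 46.9 RPKM with dox, against 57.3 and 63.0 RPKM without dox (log2 change −0.30, SE 0.09, adjusted p = 0.018). Its groups did not overlap, and the call ended without replicate 2 without dox (log2 change −0.23, adjusted p = 0.11) or replicate 2 with dox (−0.25, adjusted p = 0.10). The changes of Snhg1, Snhg6 and Gas5 were 0.24, 0.19 and 0.06 (adjusted p = 0.090, 0.10 and 0.64). Snhg6 was called without either siMyc library without dox (adjusted p = 0.038 each). Of all calls in this arm 61.6% were higher, and 49.2% with equal median ratios or 43.0% with equal quantiles.

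The interaction of siGcn5 with dox was negative and called for 2 of the 7 genes, where 11.4% of tested genes had a positive call, 14.5% a negative one and 25.9% either. It was −0.81 for Snhg1 (SE 0.16, adjusted p = 0.0072) and −0.56 for Snhg12 (SE 0.13, adjusted p = 0.013). The call of Snhg1 held in each of the 22 other settings, and that of Snhg12 ended without siControl replicate 1 without dox (−0.49, adjusted p = 0.054). The interaction was −0.43 for Snhg5, −0.38 for Snhg6, −0.34 for Gas5, −0.23 for Snhg3 and 0.05 for Snhg8, none of which passed the test. Snhg5 was called without siControl replicate 1 without dox (−0.55, adjusted p = 0.044) or siGcn5 replicate 2 without dox (−0.52, adjusted p = 0.047). Snhg6 was called without either siMyc library without dox (adjusted p = 0.022 each), with a mean RPKM of at least 5 (0.049) and with the compared groups alone (0.025). Of all calls 44.0% were higher, and 57.0% with equal median ratios.

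Set directly against each other with dox, siMyc was lower than siGcn5 for all 7 host genes, where 27.3% of tested genes were higher, 38.6% lower and 65.9% were called. The log2 difference, siMyc minus siGcn5, was −1.86 for Snhg1 (SE 0.11, adjusted p = 5.1e-07), −1.43 for Snhg12 (SE 0.09, adjusted p = 7.9e-07) and −1.36 for Snhg5 (SE 0.11, adjusted p = 2.3e-06). It was −1.24 for Gas5, −1.04 for Snhg3, −0.79 for Snhg8 and −0.53 for Snhg6. No pair of groups overlapped, and all 7 calls held in each of the 22 other settings. Of all calls 41.4% were higher in siMyc, and 53.6% with equal median ratios.

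Without dox siMyc was lower than siGcn5 for 4 of the 7, where 22.2% of tested genes were higher, 36.5% lower and 58.7% were called. The difference was −1.31 for Snhg1 (SE 0.11, adjusted p = 1.1e-05), −1.06 for Snhg12 (SE 0.09, adjusted p = 1.3e-05), −0.99 for Gas5 (SE 0.10, adjusted p = 3.7e-05) and −0.54 for Snhg5 (SE 0.11, adjusted p = 0.0014). For Snhg8, Snhg6 and Snhg3 it was −0.13, −0.12 and −0.10 (adjusted p = 0.25, 0.30 and 0.57), and the groups of Snhg6 and Snhg3 overlapped. Snhg6 was called without siMyc replicate 2 (−0.27, adjusted p = 0.024). Of all calls 37.8% were higher in siMyc, and 49.1% with equal median ratios. The comparisons with siControl share their control libraries, so their values are given side by side and no overlap between them is drawn.

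Values of snoRNAs within the host genes were also described, and whether they share reads with their hosts was not tested. Between their starts and ends RefSeq places 8 snoRNAs in Gas5, 8 in Snhg1, 2 each in Snhg3 and Snhg5, 1 each in Snhg6 and Snhg8 and 4 in Snhg12. The files held 8 of these by name, and all were tested: Snord47 (Gas5), Snord22 (Snhg1), Snord87 (Snhg6), Snora24 (Snhg8), and Snora16a, Snora44, Snora61 and Snord99 (Snhg12). Each value rested on 75 to 2489 reads per library. Reads of unspliced host RNA over a snoRNA cannot be told apart from the snoRNA. RNA this short is often lost from total RNA libraries, so the level may not be that of the finished snoRNA.

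The sequences of 5 of these snoRNAs, 1 from each of 5 hosts, are shown because each lies within its host and has an RPKM value of its own. They are from GENCODE M21 on build GRCm38, 5′ to 3′, and capitals mark the C box (ATGATGA or GTGATGA) and D box (CTGA) that hold the methylation guide proteins, or the ACA near the 3′ end of an H/ACA snoRNA. No C box of these letters was found in Snord22. They lie at chr1:161038082-161038158 (Snord47, plus strand), chr19:8725866-8725991 (Snord22, plus), chr1:9942463-9942549 (Snord87, minus), chr3:123507937-123508066 (Snora24, minus) and chr4:132310691-132310764 (Snord99, plus).
Snord47: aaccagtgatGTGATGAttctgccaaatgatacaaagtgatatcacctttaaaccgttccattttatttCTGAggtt
Snord22: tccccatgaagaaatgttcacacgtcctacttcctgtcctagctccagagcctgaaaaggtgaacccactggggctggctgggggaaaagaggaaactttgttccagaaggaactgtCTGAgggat
Snord87: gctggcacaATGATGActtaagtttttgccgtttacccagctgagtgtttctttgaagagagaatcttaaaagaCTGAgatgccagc
Snora24: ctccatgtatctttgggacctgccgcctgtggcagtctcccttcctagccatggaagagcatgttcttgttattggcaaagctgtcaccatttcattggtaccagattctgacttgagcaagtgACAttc
Snord99: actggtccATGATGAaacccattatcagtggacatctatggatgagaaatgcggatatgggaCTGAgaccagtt

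In GENCODE M21, Snord87 lies in introns of all 5 Snhg6 transcripts, and Snord47 is clear of exons in 23 of 25 Gas5 transcripts. An exon covers the whole of Snord22 in 3 of 18 Snhg1 transcripts, and of the Snhg12 snoRNAs it covers Snora61 in 4, Snord99 in 3 and Snora16a and Snora44 in 2 of 10 transcripts each. Snora24 lies inside an exon of 1 of 3 Snhg8 transcripts. The lengths behind the RPKM values, worked out from the recovered reads on the assumption that each library was scaled to its gene reads, were 2554 bases for Gas5 and 785 bases for Snhg8. The longest spliced transcripts in GENCODE M21 are 2556 and 776 bases. Whether the counted exons of a host span a snoRNA was not tested.

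All 8 snoRNAs rose with dox in siControl cells and all 8 fell in siMyc with dox, at median log2 changes of 0.56 and −1.47. In siMyc without dox 7 of the 8 fell, at a median of −0.56, and Snord87 did not pass the test (log2 change −0.30, adjusted p = 0.11). Snord22 stood at 27.0 and 29.9 RPKM in siMyc with dox, against 110 and 105 RPKM in siControl with dox (log2 change −1.88, beside −1.87 for its host Snhg1). Snord99 stood at 20.4 and 23.7 RPKM in siMyc with dox, against 75.0 and 67.4 RPKM in siControl with dox (log2 change −1.65, beside −1.37 for Snhg12). The groups did not overlap in either. Shares of called genes over the whole table are those given above for each comparison.

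Each snoRNA had the sign of its host in siGcn5 without dox. Snord47 stood at 297 and 320 RPKM in siGcn5, against 203 and 227 RPKM in siControl (log2 change 0.52, SE 0.10, adjusted p = 0.0019, beside 0.28 for Gas5). Snora24 stood at 24.5 and 20.7 RPKM in siGcn5, against 34.3 and 35.5 RPKM in siControl (log2 change −0.61, SE 0.08, adjusted p = 0.00015, beside −0.55 for Snhg8). In both the groups stood apart. Snord22 and the 4 snoRNAs of Snhg12 rose by log2 0.41 to 0.61, and Snord87 had −0.22 (adjusted p = 0.16, beside −0.24 for Snhg6). With dox in siControl, Snora61 and Snord99 rose by 0.65 and 0.63, beside 0.26 for their host Snhg12, and the difference between snoRNA and host was not tested. Both rest on lengths of 62 and 56 bases, shorter than the whole snoRNAs.

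In siGcn5 with dox snoRNAs and hosts did not all share a sign. Snord87, Snora24 and Snora61 fell, at log2 changes of −0.67, −0.55 and −0.30 (adjusted p = 0.0013, 0.00035 and 0.012), and none rose. Snora61 thus fell while its host Snhg12 had 0.06, and Snora16a, Snora44 and Snord99, at −0.09, −0.05 and −0.20, did not pass the test. Snord47 had 0.02 beside −0.06 for Gas5, and Snord22 −0.20 beside 0.00 for Snhg1, none of them called. With dox in siGcn5 cells Snora24 and Snord22 rose by 0.55 and 0.37 (adjusted p = 0.00027 and 0.0063) and Snora16a fell by 0.36 (adjusted p = 0.015). The host of Snord22, Snhg1, did not pass the test there. With dox in siMyc cells the 4 snoRNAs of Snhg12 fell, by 0.40 to 0.71, and the other 4 did not pass the test.

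**Figure D3:**
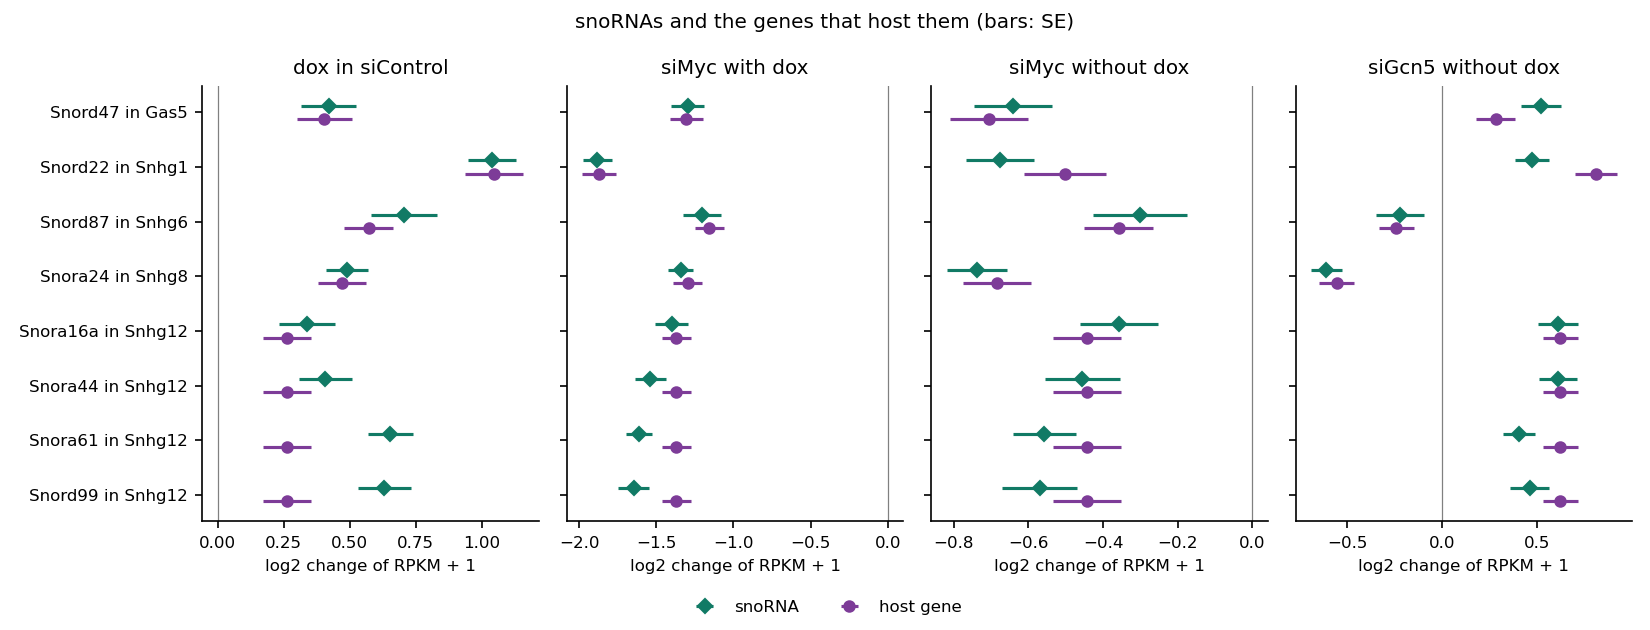
Log2 change of RPKM + 1 (x axes) with its SE (bars) for 8 snoRNAs (diamonds) and the genes that host them (circles), in 4 comparisons. Snora24 and Snord87 lie left of 0 in the siGcn5 panel with their hosts, and the other 6 lie right of 0; the 4 snoRNAs of Snhg12 share 1 host value.

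Other genes of the snoRNA pathway were described by lists. Of all tested genes, 46.1% rose and 27.9% fell with dox in siControl, and 37.7% rose and 37.1% fell in siMyc with dox. In siMyc without dox 12.8% of all tested genes rose and 10.7% fell. For siGcn5 without dox these shares were 36.9% and 20.4%. Of 14 symbols listed as other noncoding hosts, 6 were found in the files and 5 were tested. With dox in siControl 4 of 5 rose, led by Snhg4 at 19.9 RPKM with dox against 7.41 RPKM without dox (log2 change 1.32). In siMyc with dox 4 of 5 fell, and 1500012F01Rik (Zfas1 in RefSeq) stood at 24.0 RPKM, against 89.9 RPKM in siControl (log2 change −1.87). In siGcn5 without dox 3 of 5 rose and 1 fell: 1500012F01Rik stood at 82.4 RPKM, against 48.5 RPKM in siControl (log2 change 0.75), and Snhg4 at 3.69 RPKM, against 7.41 RPKM (log2 change −0.84). Snhg4 and 1500012F01Rik thus moved in opposite directions. Snhg11 stood at 4.10 and 2.32 RPKM in siGcn5 without dox, against 0.162 and 0.124 RPKM in siControl (log2 change 1.85), and its siGcn5 libraries stood far apart.

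Protein-coding hosts, mostly ribosomal protein and translation factor genes, followed siMyc. Of 47 tested, 44 fell and 1 rose in siMyc with dox (median −0.97), and 32 fell and 1 rose without dox (median −0.55). The 32 falls ran from 19 to 34 over the other settings. With dox in siControl 38 rose and 0 fell (median 0.48). In siGcn5 without dox 11 fell and 3 rose (median −0.05), and over the other settings the falls ran from 4 to 19 and the rises from 2 to 8. Rpl3, a ribosomal protein gene that hosts box C/D snoRNAs, stood at 365 RPKM in siGcn5 without dox, against 907 RPKM in siControl (log2 change −1.33). Near-identical copies of ribosomal protein genes make such values uncertain.

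The core snoRNP proteins bind and stabilise the snoRNAs, and all 8 tested rose with dox in siControl (median 1.60) and fell in siMyc with dox (median −1.83). Dkc1, the pseudouridine synthase, stood at 12.4 RPKM in siMyc with dox, against 72.4 RPKM in siControl (log2 change −2.49). Only 1 of 8, Nop56, fell in siGcn5 without dox (log2 change −0.46, adjusted p = 0.013), a count that ran from 0 to 3 over the other settings, and in siMyc without dox 7 fell. Of 10 assembly factors, 9 rose with dox in siControl and 9 fell in siMyc with dox. Nolc1, a nucleolar chaperone of snoRNPs, stood at 25.7 RPKM in siMyc with dox, against 128 RPKM in siControl (log2 change −2.29). Of 19 genes for intron lariat and snoRNA processing, 18 rose with dox in siControl and 18 fell in siMyc with dox. Of the 19, 7 rose and 1 fell in siGcn5 without dox, with Tgs1 at 10.6 RPKM against 6.25 RPKM in siControl (log2 change 0.68).

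Nonsense-mediated decay factors act on the spliced exons of noncoding hosts. Of 12 tested, 8 rose with dox in siControl (median 0.39) and 8 fell in siMyc with dox (median −0.43). In each comparison 66.7% of the list was called, against 74.0% and 74.9% of all tested genes. Upf3b stood at 5.49 RPKM in siMyc with dox, against 19.6 RPKM in siControl (log2 change −1.66). In siGcn5 without dox 6 rose and 1 fell, so that 58.3% were called, against 57.3% of all tested genes. Smg6, the endonuclease of the pathway, stood at 8.78 RPKM there, against 5.42 RPKM in siControl (log2 change 0.61). Of 12 regulators of TOP mRNA translation, 9 rose and 1 fell with dox in siControl, and 7 fell in siMyc with dox, with Larp1, which binds TOP stretches, at 28.7 RPKM against 61.2 RPKM in siControl (log2 change −1.07). Of the same 12, 5 rose and 4 fell in siGcn5 without dox, and each count ran from 2 to 5 over the other settings. Gas5 RNA is known to bind the glucocorticoid receptor. Of 7 tested genes of that receptor and its targets, 2 rose and 4 fell with dox in siControl, 3 rose and 1 fell in siMyc with dox, and 1 rose and 3 fell in siGcn5 without dox, with Fkbp5 at 2.49 RPKM against 9.11 RPKM in siControl (log2 change −1.55).

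**Figure D4:**
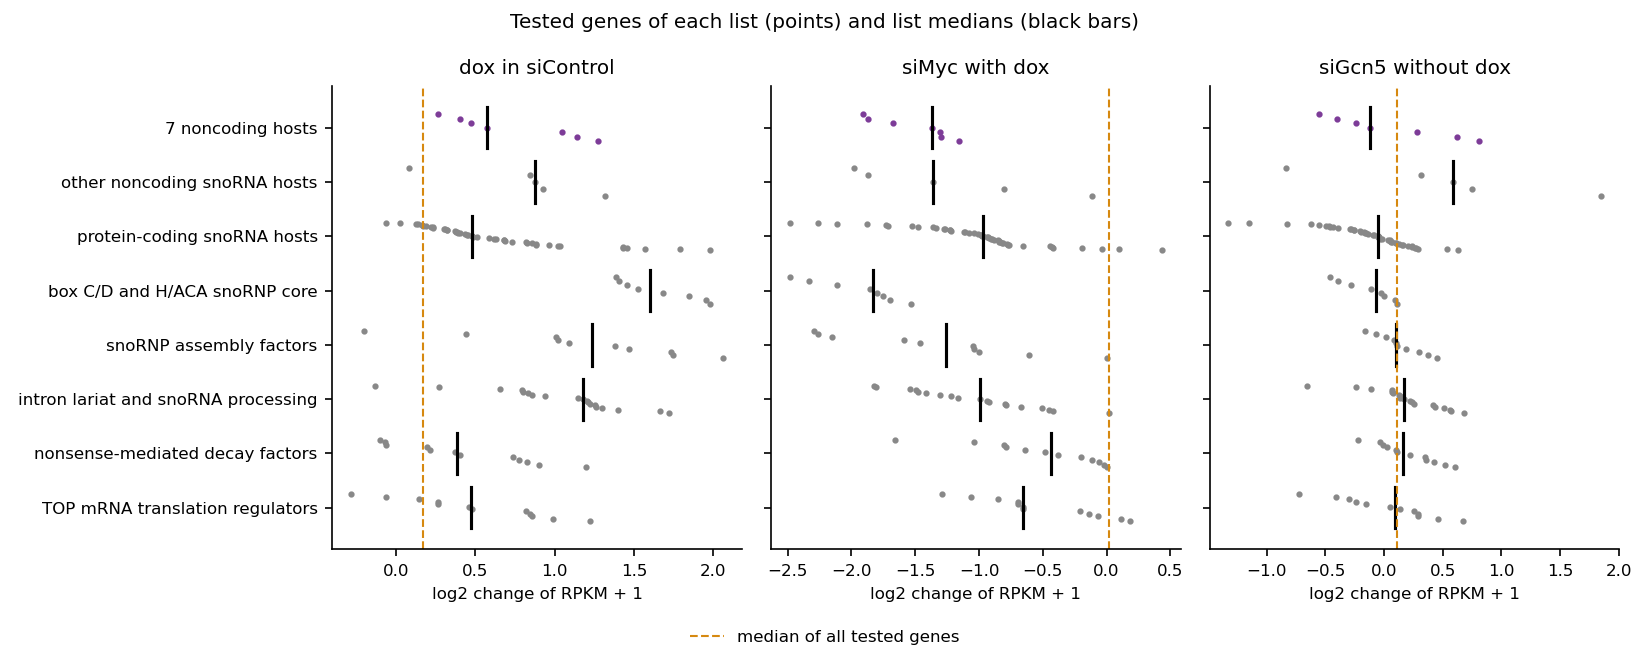
Log2 change of RPKM + 1 (x axes) of each tested gene (points) in the 7 noncoding hosts and 7 other lists (y axis), with list medians (black bars) and the median of all tested genes (dashed line), in 3 comparisons. In siMyc with dox the medians of the 8 lists lie between −0.43 and −1.83, and in siGcn5 without dox the noncoding hosts spread to both sides of 0.

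The genes beside the host genes did not all share their changes. Rcc1, a regulator of nuclear transport beside Snhg3, rose with dox in siControl to 81.4 RPKM, against 25.3 RPKM without dox (log2 change 1.65), and in siGcn5 without dox stood at 10.9 RPKM, against 25.3 RPKM in siControl (log2 change −1.15). Slc3a2, an amino acid transporter subunit that lies next to Snhg1 on the opposite strand, stood at 71.6 RPKM with dox, against 63.8 RPKM without dox in siControl (log2 change 0.17, adjusted p = 0.059), where Snhg1 rose by 1.05. Wdr74, on the other side of Snhg1, rose by 1.59. Trnau1ap beside Snhg12 had 0.09 (adjusted p = 0.47). Gas5 overlaps Zbtb37 on the opposite strand, and Snhg6 overlaps 6030422M02Rik (Mcmdc2 in RefSeq). How counting treated strand is not given in the sources used here, so reads of such pairs could be shared. Zbtb37 stayed below 1 RPKM and 6030422M02Rik below 0.1 RPKM in every group mean.

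Across the 12 libraries the host genes differed in how closely they moved together. Pearson's r of log2(RPKM + 1) ran from 0.44 for Snhg3 and Snhg12 to 0.96 for Gas5 and Snhg1. Gas5, Snhg1 and Snhg12 correlated at 0.91 to 0.96 with one another, and Snhg3, Snhg5, Snhg6 and Snhg8 at 0.88 to 0.94. Pairs across these sets ran from 0.44 to 0.86 (Snhg1 and Snhg5), and the sets were picked from the same values. The libraries fall into 6 groups, so these values describe shared group differences and carry no test. Among 13059 other tested genes, the most alike by this measure were Ptpn2 (0.992) and 1500012F01Rik (0.992) for Snhg1, Rpl38 and 9030617O03Rik (0.984 and 0.981) for Gas5, and Znf512b and Npepl1 (0.987 and 0.979) for Snhg12. They were Fam98a and Dhx15 (0.991 each) for Snhg3, Atxn7l2 and Rps6ka1 (0.990 and 0.987) for Snhg5, Hnrnph1 and 6230400D17Rik (0.977 and 0.963) for Snhg6, and 5730528L13Rik and Eno1 (0.981 and 0.972) for Snhg8. By Spearman's rho the most alike gene was another for all but Snhg6, where it was again Hnrnph1 (0.979).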

How the data were processed

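The authors deposited 1 RPKM value per gene symbol and library, with no counts. Per the submitters' processing notes, the build was mm9, and HTSeq, affy, edgeR, Bowtie 0.12.8 and TopHat2 2.0.9 were named. The sources used here give no role for each tool, no annotation, no filter and no setting for strand. Since RPKM is relative to the library's total, RNA per cell is unknown, and other genes appear lower where abundant ones increase.

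Groups came from the labels. Genes with an RPKM of at least 1 in 2 of 12 libraries (13175) were tested on log2(RPKM + 1) by limma-trend (limma 3.58.1, R 4.3.3), with 1 term per group and 6 residual degrees of freedom, in 11 comparisons. P-values are two-sided and adjusted over all tested genes. The host genes, lists and the rule for named genes were chosen with earlier results of these data known. The rule named the targeted genes, the factors Pou5f1, Sox2 and Klf4, and snoRNAs within a host. It also named the nearest gene on each side, the 2 genes most alike in pattern and up to 2 called genes per list. The 8 lists are other noncoding hosts, protein-coding hosts, core snoRNP proteins, assembly factors, snoRNA processing, nonsense-mediated decay, regulators of TOP mRNA translation, and the glucocorticoid receptor with its targets.

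Whole reads, recovered for all 20788 genes with a value (tolerance 0.05 read), gave a voom alternative; on simulated reads 97.6% of 20476 genes came back exactly. Replicates differed by more than sampling noise (chi-square per degree of freedom 33.6 to 92.5), so none was counted once. The 22 alternatives changed the pseudocount, filter, scaling, trend, library weights, unit, replicate block and libraries.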

Additional observations from a re-analysis of the deposited data

Results flagged for a closer look

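The response to dox differed from siControl, by a test of the interaction in limma, in these host genes. With siMyc the difference of the log2 changes with dox, siMyc minus siControl, was −1.37 for Snhg1, −1.24 for Snhg5, −1.17 for Snhg3, −0.93 for Snhg12, −0.80 for Snhg6, −0.61 for Snhg8 and −0.60 for Gas5. In siMyc the log2 changes with dox themselves ran from −0.67 to 0.10 and in siControl from 0.26 to 1.28. With siGcn5 the difference, siGcn5 minus siControl, was −0.81 for Snhg1 and −0.56 for Snhg12. Both genes were higher in siGcn5 than in siControl before dox, a difference that the interaction subtracts by definition. Summed markers of fibroblasts, epithelium and skeletal muscle also differed between the arms with dox, and their part in these differences was not tested. So did the factors Pou5f1, Sox2 and Klf4, whose part was not tested either.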

How the results depend on the processing

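Of 77 results of the host genes, 57 passed the test, and 45 of these passed in each of the 22 alternatives. Calls that ended are given with the results above; where a scaling, or leaving out a library, ended them by its own construction (a shift of all genes, fewer residual degrees of freedom) no further cause was tested.

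The count of host genes called for dox in siMyc, 2, was 1 with no filter, on recovered reads and with the compared groups alone, and 5 with equal quantiles; it ran from 1 to 4 with 1 library left out. In siGcn5 without dox, 6 were called, 3 with no filter and 3 to 6 with 1 library left out. In siMyc without dox 7 were called, and 3 to 7 with 1 library left out. Genes called in all were 5899 for dox in siMyc, and 3787 with a mean RPKM of at least 5; 3098 for siMyc without dox, and 1072 to 3481 with 1 library left out; and 3409 for the interaction of siGcn5 with dox, and 1677 to 3960.

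Changes of sign were seen only among values that had not passed the test. With equal quantiles Snhg3 for dox in siMyc was −0.030, Gas5 for dox in siGcn5 −0.045, Snhg1 for siGcn5 with dox 0.033 and Snhg3 for siMyc against siGcn5 without dox 0.015. With equal median ratios Gas5 for dox in siGcn5 was −0.045, Snhg12 for siGcn5 with dox −0.020 and Snhg3 for siMyc against siGcn5 without dox 0.014. With 1 library left out, dox in siGcn5 gave −0.019 to 0.14 for Gas5 and dox in siMyc −0.019 to 0.22 for Snhg3. siGcn5 with dox gave −0.14 to 0.018 for Gas5, −0.068 to 0.058 for Snhg1 and −0.0069 to 0.12 for Snhg12, and siGcn5 without dox −0.25 to 0.0031 for Snhg5. siMyc against siGcn5 without dox gave −0.30 to 0.11 for Snhg3 and −0.27 to 0.034 for Snhg6, and the interaction of siGcn5 with dox −0.033 to 0.13 for Snhg8.

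Replicate numbers were not used as pairs in the main fit. All 15 correlations of same-numbered deviations were positive, at 0.09 to 0.49, and 14 were over 0.1. More genes were called with the replicate block in each of the 11 comparisons, such as 4440 in place of 3098 for siMyc without dox. With the replicate block the interaction of siGcn5 with dox was called for 4 host genes in place of 2, with Snhg5 (adjusted p = 0.019) and Snhg6 (0.036) added, and for 5061 genes in place of 3409. Snhg1 was added for dox in siGcn5 (adjusted p = 0.041), and the block changed no other of the 77 results' calls. Counts of 1 gene in the lists ran from 0 to 4 over the alternatives. The host genes had at least 403 reads in each library, and each group had 2 libraries.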
